A study of Homo sapiens with 12 samples.

Results

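The genes described here encode plasminogen activators, the urokinase receptor and serpins that are grouped with them. They are 6 genes, PLAU, PLAT, PLAUR, SERPINB2, SERPINE2 and SERPINB5, of 24359 gene symbols in the table of PC-3M cells. Each gene was read from the transcript row with its symbol that had the highest mean over the 6 PC-3M libraries. The set was picked with the PC-3M result in view, for the gain of SERPINB2, so the PC-3M values of its members are a description and carry no test. RNA sequencing compared PC-3M cells after KMT9a siRNA (3 libraries, passage 11) with PC-3M cells after control siRNA (3 libraries, passage 11), and MCF10A cells after KMT9a siRNA with MCF10A cells after control siRNA (3 libraries each, passage 13). PC-3M is a line of metastatic prostate cancer cells derived from PC-3, and MCF10A is an immortalised breast epithelial line that does not form tumours. The siRNA lowers the transcript of N6AMT1, whose product KMT9a is the catalytic subunit of a methyltransferase, and the series title asks how that enzyme bears on metabolism and proliferation. Replicates are called biological in the labels, which do not say whether they were separate cultures, so the spread and the p-values cover these libraries only.

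In the plasminogen system, serine proteases cut the inactive plasma protein plasminogen into plasmin, which degrades fibrin and matrix proteins at the cell surface. Urokinase (PLAU) does so bound to its membrane-anchored receptor (PLAUR), and tissue-type activator (PLAT) does so mainly on fibrin. Serpins are proteins that trap serine proteases in a covalent complex. SERPINB2 encodes plasminogen activator inhibitor type 2, which is largely kept inside cells, and SERPINE2 encodes protease nexin 1, which traps thrombin as well as the activators. SERPINB5 encodes maspin, a serpin relative that does not inhibit proteases and is known as an epithelial gene of breast and prostate. Urokinase and its receptor are long studied in the invasion of prostate cancer cells.

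The stretches upstream of 3 of the genes are shown because these were the members whose 250 bases before the annotated start held the letters TGANTCA, which include the AP-1 element TGAGTCA. Windows in the RefSeq promoter table (GRCh38.p14) matched 5 of the 6 symbols, with 2 windows each for PLAU and SERPINE2; PLAT had none in that table. Capitals mark TGANTCA and, in SERPINB2, TATAAA.
SERPINB2 (GRCh38.p14, chr18:63887455-63887704, plus strand): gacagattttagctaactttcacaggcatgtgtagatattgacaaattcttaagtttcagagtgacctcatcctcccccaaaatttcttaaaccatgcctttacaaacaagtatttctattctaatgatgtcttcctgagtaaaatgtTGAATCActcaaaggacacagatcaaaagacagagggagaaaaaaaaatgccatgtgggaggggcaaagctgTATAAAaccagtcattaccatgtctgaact
PLAUR (GRCh38.p14, chr19:43670170-43670419, minus strand): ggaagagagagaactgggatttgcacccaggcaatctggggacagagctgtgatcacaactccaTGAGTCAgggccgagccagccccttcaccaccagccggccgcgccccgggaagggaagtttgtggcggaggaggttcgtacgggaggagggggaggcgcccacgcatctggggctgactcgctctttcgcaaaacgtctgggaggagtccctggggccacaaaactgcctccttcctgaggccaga
SERPINB5 (GRCh38.p14, chr18:63476708-63476957, plus strand): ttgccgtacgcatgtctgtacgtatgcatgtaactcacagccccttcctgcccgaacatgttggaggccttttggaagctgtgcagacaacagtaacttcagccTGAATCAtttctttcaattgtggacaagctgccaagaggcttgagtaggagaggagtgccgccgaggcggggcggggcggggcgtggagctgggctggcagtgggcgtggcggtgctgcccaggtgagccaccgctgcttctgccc
The letters TGANTCA began 102 bases before the start in SERPINB2 and 146 before it in SERPINB5, both as TGAATCA, and 186 before it in PLAUR, as TGAGTCA. The windows of PLAU and SERPINE2 did not hold these letters. Searched on both strands, TGANTCA occurred in 6.57% of 35116 promoter windows of the same length, TATAAA, which began 30 bases before the start of SERPINB2, in 10.72%, and TGACGTCA, the cAMP response element, in 1.65% and in no window of a member. The motifs do not overlap one another in these windows. A match of letters is not a measured binding site.

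Depth in PC-3M was 40236221 to 53401603 read ends assigned to genes per library, 2 per read pair. N6AMT1 stood at 3.01, 2.58 and 2.83 CPM (read ends scaled by TMM, relative to the library's total over tested genes) with KMT9a siRNA, against 11.4, 12.0 and 11.0 CPM with control siRNA. The knockdown libraries therefore lay below the control libraries, as labelled. KMT9a siRNA replicate 2 stood apart from the other knockdown libraries: its chi-square over degrees of freedom was 11.0 and 13.3 against them, compared with 2.37 between them, and values without it are given where they matter. The epithelial keratin genes KRT8, KRT18 and KRT19 averaged 335, 547 and 956 CPM with KMT9a siRNA and 147, 590 and 259 CPM with control siRNA. The other genes of the epithelial list went in opposite directions. CDH1 averaged 20.0 CPM with KMT9a siRNA and 8.14 CPM with control siRNA, and EPCAM 23.3 and 41.1 CPM. Of the prostate markers, HOXB13 averaged 126 CPM with KMT9a siRNA and 270 CPM with control siRNA, whereas KLK3, the gene of prostate-specific antigen, was at 0 in all knockdown libraries and at a mean of 0.0477 CPM in control libraries.

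All 6 genes were higher in the 3 KMT9a siRNA libraries than in any of the 3 control siRNA libraries of PC-3M. SERPINB2 had by far the widest gap, at 39.0 times its control mean, and the other 5 stood at 3.32 to 4.45 times their control means. The groups failed to overlap in this direction for 38.6% of all 14958 tested genes, and in the other direction for 38.4%. A gain of at least 2-fold that passed the test was found for 12.3% of them. Since the members were chosen on this contrast, nothing is read from their count. In RNA from whole cultures, more cells that express a gene and more RNA of it per cell cannot be told apart.

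**Figure D1:**
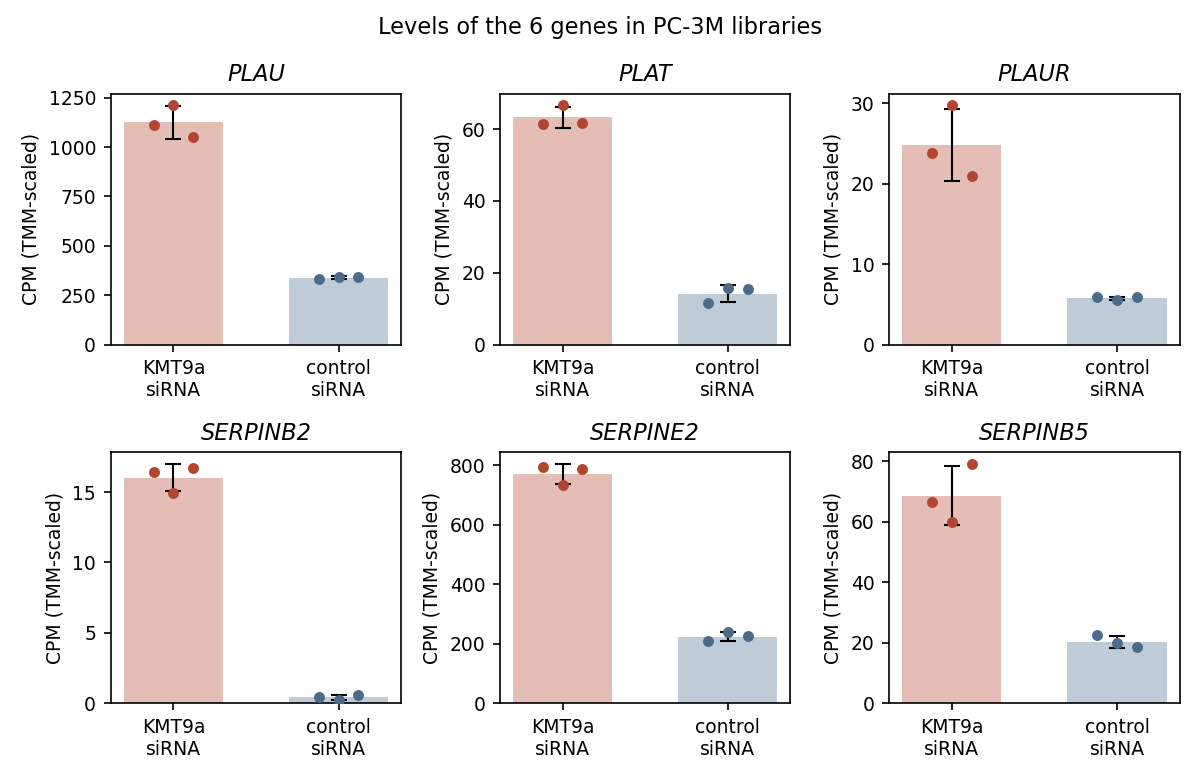
CPM (TMM-scaled) of the 6 genes in PC-3M, with KMT9a siRNA at the left and control siRNA at the right of each panel. Points are libraries, bars are means and error bars are SD (n = 3). The 3 knockdown points lie above the 3 control points in each panel, and for SERPINB2 the control points are near 0, between 0.241 and 0.549 CPM.

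PLAU, on hg19 chromosome 10 from 75670862 to 75677258 (plus strand), had 1114, 1211 and 1049 CPM in KMT9a siRNA replicates 1 to 3, against 331, 340 and 345 CPM in the control siRNA replicates. The means were 1125 ± 81.3 CPM and 339 ± 7.17 CPM (SD, n = 3 each), a log2 fold change of 1.73 (SE 0.0546). PLAU was already an abundant transcript, with a mean above that of 99.0% of tested genes. The spread among knockdown libraries was wider than among controls, and KMT9a siRNA replicate 2 was the highest of them. C10orf55 runs over the whole length of PLAU on the opposite strand (6397 bases) and averaged 170 CPM in KMT9a siRNA libraries and 53.4 CPM in control libraries. Strand handling is not given in the sources used here, so reads of the 2 genes cannot be told apart.

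PLAT, on hg19 chromosome 8 from 42032236 to 42065194 (minus strand), had 61.5, 66.6 and 61.6 CPM with KMT9a siRNA, against 11.5, 15.7 and 15.4 CPM with control siRNA. The log2 fold change was 2.17 (SE 0.105). Control siRNA replicate 1 was the lowest library, and the knockdown libraries were close together, at 63.2 ± 2.88 CPM (SD, n = 3).

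PLAUR, on hg19 chromosome 19 from 44152723 to 44174498 (minus strand), had 23.8, 29.7 and 21.0 CPM with KMT9a siRNA, against 5.87, 5.57 and 5.89 CPM with control siRNA. The log2 fold change was 2.08 (SE 0.115). The control libraries were nearly level at 5.78 ± 0.181 CPM, and the knockdown libraries varied more in proportion to their mean than those of the other 5 genes, at 24.8 ± 4.46 CPM (SD, n = 3 each), with replicate 2 on top.

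SERPINB2, on hg19 chromosome 18 from 61554939 to 61571124 (plus strand), had 16.5, 14.9 and 16.7 CPM with KMT9a siRNA, against 0.442, 0.241 and 0.549 CPM with control siRNA. These levels rest on 667, 669 and 639 read ends in the knockdown libraries and on 25, 13 and 31 in the control libraries. In read pairs the groups held 988 and 34, a ratio per depth of 39.3 (95% interval 27.9 to 57.0, exact binomial, counting error only). The log2 fold change was 5.22 (SE 0.227), on a scale that adds 1 to each value and so understates low genes. It ranked 10th among the 14958 tested genes on that scale, by the value on which SERPINB2 was picked. SERPINB3 and SERPINB4 ranked 13th and 27th, although their ratios per depth, 134 and 75.7 on very few control reads, were larger than that of SERPINB2. The KMT9a siRNA libraries (16.0 ± 0.978 CPM) varied less in proportion to their mean than the control libraries (0.411 ± 0.157 CPM; SD, n = 3 each).

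SERPINE2, on hg19 chromosome 2 from 224839765 to 224904036 (minus strand), had 794, 733 and 786 CPM with KMT9a siRNA, against 208, 238 and 224 CPM with control siRNA. The log2 fold change was 1.79 (SE 0.0565). Here KMT9a siRNA replicate 2 was the lowest of the knockdown libraries, the reverse of its place for PLAU, PLAT and PLAUR.

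SERPINB5, on hg19 chromosome 18 from 61144144 to 61172318 (plus strand), had 66.7, 60.0 and 79.2 CPM with KMT9a siRNA, against 22.5, 19.9 and 18.5 CPM with control siRNA. The log2 fold change was 1.75 (SE 0.10). Replicate 2 was again the lowest knockdown library, and replicate 3 the highest.

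The choice of transcript row did not set these values. The 6 symbols have 13 rows in all, and in each of them the knockdown libraries lay above the control libraries. The rows share most of their exons and hence their reads. Log2 fold changes of the 3 PLAUR rows ran from 2.06 to 2.11, those of the 3 SERPINE2 rows from 1.79 to 1.80, and those of the 2 SERPINB2 rows were 5.21 and 5.22. The authors' deposited table gives log2 fold changes of 1.71 for PLAU, 2.13 for PLAT, 2.08 for PLAUR, 5.17 for SERPINB2, 1.76 for SERPINE2 and 1.73 for SERPINB5 in the same rows.

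Levels were compared between genes as CPM per kilobase of the transcript row. With control siRNA, PLAU led at 128 ± 2.71, followed by SERPINE2 at 99.7 ± 6.59, SERPINB5 at 7.75 ± 0.784, PLAT at 4.51 ± 0.748, PLAUR at 3.75 ± 0.118 and SERPINB2 at 0.191 ± 0.0728 CPM per kilobase (SD, n = 3). Of these neighbours, PLAT (3.65 to 4.99) and PLAUR (3.62 to 3.83) overlapped and were not separated beyond their spread. With KMT9a siRNA the order was the same, with PLAU at 425 ± 30.7, SERPINE2 at 344 ± 14.9, SERPINB5 at 26.2 ± 3.71, PLAT at 20.1 ± 0.916, PLAUR at 16.1 ± 2.90 and SERPINB2 at 7.46 ± 0.455 CPM per kilobase (SD, n = 3). There PLAT (19.5 to 21.2) lay just above PLAUR (13.6 to 19.3) without overlap. With control siRNA the order held in 72 of 72 combinations of the members' transcript rows. The combinations were not run for KMT9a siRNA.

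**Figure D2:**
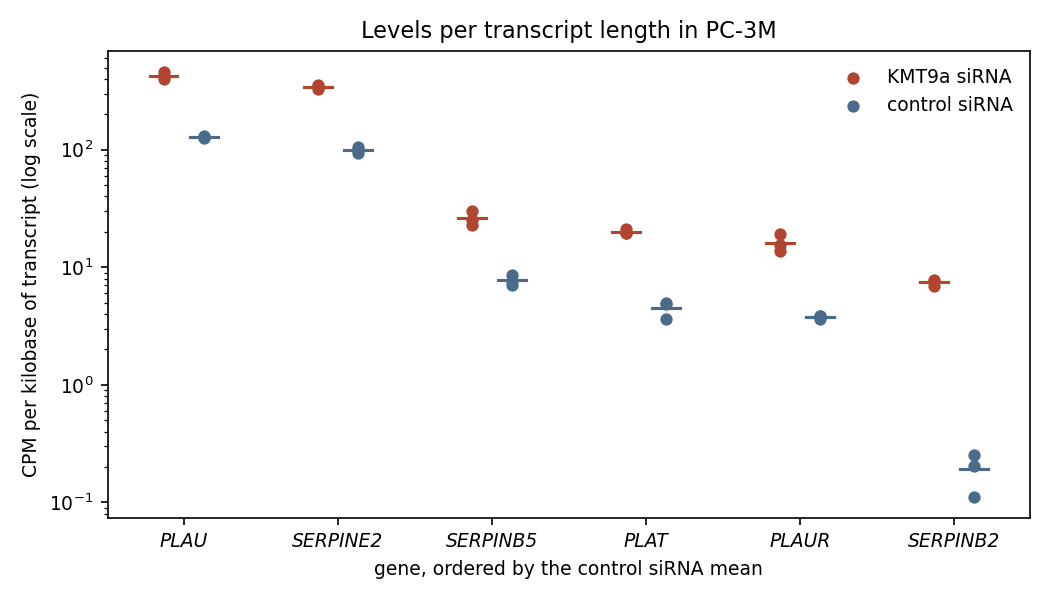
CPM per kilobase of transcript on a log axis for the 6 genes in PC-3M, ordered by the control siRNA mean, with KMT9a siRNA left of control siRNA for each gene. Points are libraries and short lines are means (n = 3). PLAU and SERPINE2 stand above the other 4 genes in both groups, and SERPINB2 is lowest in both, at 7.46 with KMT9a siRNA and 0.191 with control siRNA.

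Ratios of these per-length levels within a library do not depend on the scaling between libraries. PLAU exceeded PLAUR by 27.3, 23.7 and 29.1 times with KMT9a siRNA, against 32.8, 35.6 and 34.1 times with control siRNA. The ratio was thus lower in every knockdown library than in every control library. The ratio of PLAU to PLAT was likewise lower with KMT9a siRNA (21.2 ± 0.780) than with control siRNA (28.9 ± 4.68; SD, n = 3 each), so that PLAU made up 95.5% of the 2 activators' summed level with KMT9a siRNA and 96.6% with control siRNA. The ratio of PLAU to SERPINE2, 1.24 ± 0.142 with KMT9a siRNA and 1.29 ± 0.0684 with control siRNA (SD, n = 3 each), overlapped between the groups.

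PLAU over SERPINB2 was 55.1, 66.0 and 51.0 with KMT9a siRNA, against 608, 1149 and 511 with control siRNA. The groups lay far apart, and the control libraries differed among themselves more than the knockdown libraries did. These are ratios of transcripts, and neither protein nor protease activity was measured.

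**Figure D3:**
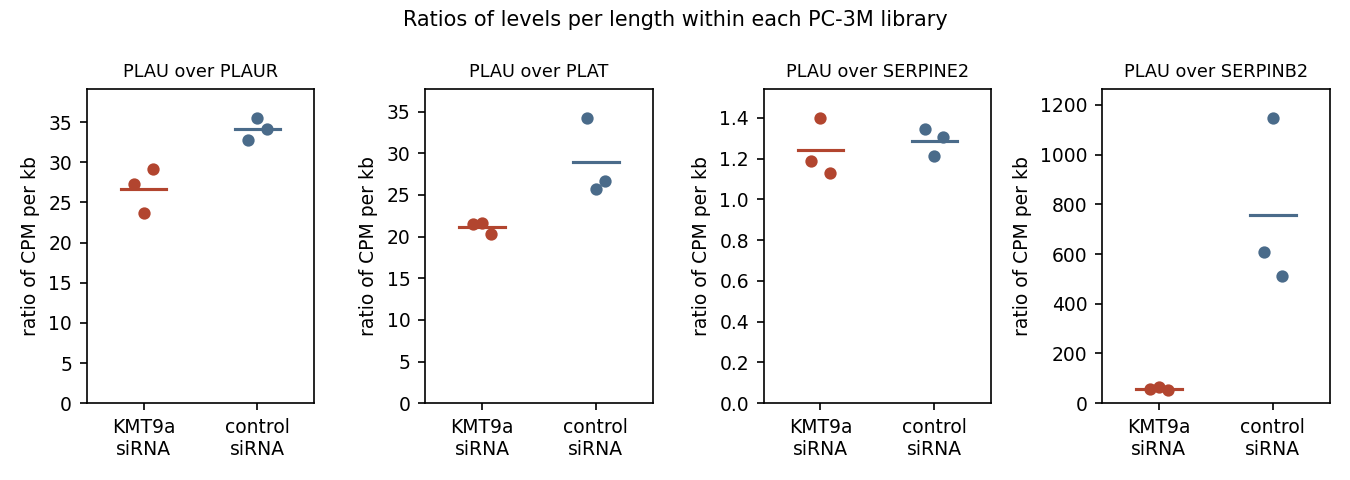
Ratios of CPM per kilobase within each PC-3M library, with KMT9a siRNA left of control siRNA. Points are libraries and lines are means (n = 3), and each axis starts at 0. PLAU over SERPINB2 separates the groups most widely, at 51.0 to 66.0 with KMT9a siRNA and 511 to 1149 with control siRNA, while PLAU over SERPINE2 overlaps.

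The other genes of the plasminogen system were taken as a list of 33 genes, of which 24 passed the filter on low values and were tested. They comprise plasminogen, further inhibitors, plasminogen receptors, clearance receptors, and partners of the urokinase receptor. At an adjusted p under 0.05 (limma, Benjamini-Hochberg over all tested genes), 13 were higher and 6 lower with KMT9a siRNA, against 37.2% of all tested genes higher and 37.3% lower (74.5% in both directions). With scaling by library totals the split over all genes was 4384 higher and 6821 lower, against 5564 and 5575 here, and 12 genes of the list were higher and 10 lower. Their median log2 fold change was 0.33, and that of all tested genes 0.00099. This list too was chosen with earlier results of these data known, so its counts and median are a description only.

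The list's inhibitors described here were low. SERPINI1, the neuronal serpin neuroserpin that inhibits tissue-type activator, averaged 8.37 ± 0.711 CPM with KMT9a siRNA and 5.96 ± 1.201 CPM with control siRNA (log2 fold change 0.50, adjusted p = 0.00525). SERPINF2, the gene of the plasmin inhibitor antiplasmin, did not pass (1.39 and 1.75 CPM, adjusted p = 0.181), though it did without KMT9a siRNA replicate 2 (log2 fold change -0.65, adjusted p = 0.0112). SERPINA5, the protein C inhibitor gene, and PLG itself were too low to test, at no more than 0.0446 and 0.185 CPM in any library.

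Receptors of plasminogen went in different directions. ANXA2, which encodes the annexin that binds plasminogen and tissue-type activator, rose to 2014 ± 18.1 CPM with KMT9a siRNA, against 260 ± 3.15 CPM with control siRNA (log2 fold change 2.95, adjusted p = 1.14e-13). ANXA2 has processed copies elsewhere in the genome, which can share its reads. Its partner subunit gene S100A10 was lower by a small amount, at 158 ± 15.9 and 176 ± 4.67 CPM (log2 fold change -0.17, adjusted p = 0.0374), a call lost when control siRNA replicate 1, 2 or 3 or KMT9a siRNA replicate 1 was left out (adjusted p = 0.0545 to 0.101). PLGRKT, a membrane receptor of plasminogen, was lower at 1.30 ± 0.267 CPM with KMT9a siRNA and 3.10 ± 0.266 CPM with control siRNA (log2 fold change -1.25, adjusted p = 3.62e-05). ENO1, a glycolytic enzyme that also binds plasminogen at the cell surface, was lower at 3066 ± 215 CPM with KMT9a siRNA and 5007 ± 88.0 CPM with control siRNA (log2 fold change -0.71, adjusted p = 9.13e-08; SD, n = 3 each).

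Integrin genes whose products act with the urokinase receptor included the widest gains of the list. ITGA3 had 1745 ± 201 CPM with KMT9a siRNA and 70.3 ± 1.26 CPM with control siRNA (log2 fold change 4.63), and ITGB3 had 10.02 ± 0.327 and 0.931 ± 0.207 CPM (3.39). ITGA5 stood at 198 ± 19.5 CPM with KMT9a siRNA and 22.2 ± 1.51 CPM with control siRNA (3.15), and ITGAV at 357 ± 33.1 and 51.1 ± 6.72 CPM (2.81; SD, n = 3 each). The adjusted p of these 4 genes was 1.22e-09 or lower. The beta 1 subunit gene ITGB1 did not pass, at 145 CPM with KMT9a siRNA and 148 CPM with control siRNA (adjusted p = 0.646), except that scaling by library totals made it lower (log2 fold change -0.20, adjusted p = 0.00498).

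Of the clearance receptors, LRP1, which takes up activators bound to their inhibitors, averaged 56.4 ± 10.1 CPM with KMT9a siRNA and 60.9 ± 0.735 CPM with control siRNA (SD, n = 3 each) and did not pass (log2 fold change -0.12, adjusted p = 0.268). Without KMT9a siRNA replicate 2, its highest knockdown library, LRP1 passed as lower (log2 fold change -0.26, adjusted p = 2.43e-05), and it also did with all 6 libraries scaled by library totals (-0.30, adjusted p = 0.00972). LRPAP1, its chaperone gene, was lower by 0.15 log2 units (adjusted p = 0.0440), a call lost without any of 5 libraries (adjusted p = 0.0629 to 0.133) and held without KMT9a siRNA replicate 2. F12, the contact-system factor that activates plasma kallikrein, was lower at 16.1 ± 3.34 CPM with KMT9a siRNA and 23.0 ± 1.32 CPM with control siRNA (log2 fold change -0.53, adjusted p = 0.00142). HGF, a growth factor related in structure to plasminogen, was called lower on very few reads, 2 read pairs with KMT9a siRNA and 30 with control siRNA, a ratio per depth of 0.0901 (95% interval 0.0104 to 0.355, exact binomial, counting error only). It passed the filter on low values only through the control siRNA libraries, so its place among the 6 lower genes is no independent support for that count.

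**Figure D4:**
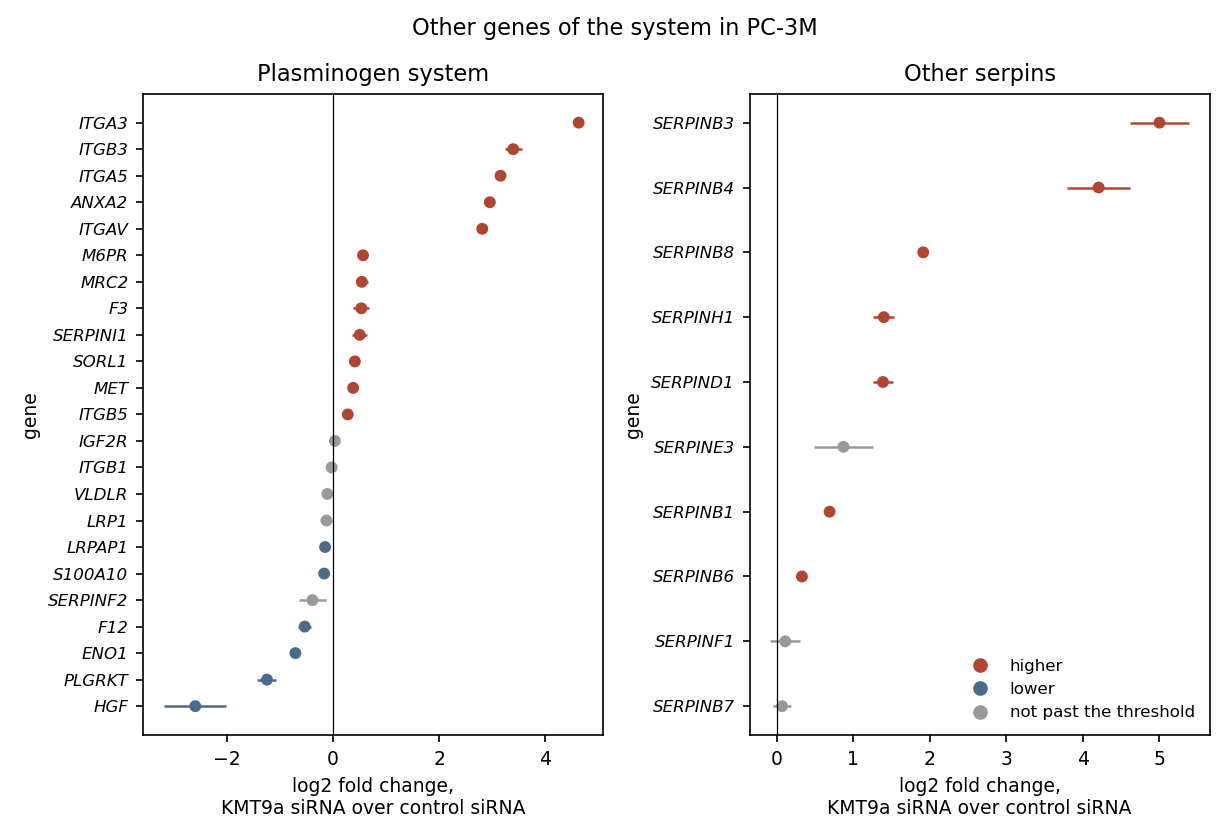
Log2 fold changes (KMT9a siRNA over control siRNA, x axis) of 23 of the 24 tested genes of the plasminogen system at the left and of the other serpins at the right in PC-3M. Points are limma estimates, horizontal lines are their SE, and colours give the call at an adjusted p under 0.05. ITGA3 (4.63) tops the left panel and HGF (-2.60) ends it; in the right panel 7 of 10 genes are called higher and 0 lower.

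The other serpin genes formed a list of 27, of which 10 could be tested and 17 were too low. Of the 10, 7 were higher and 0 lower, against 37.2% and 37.3% of all tested genes, and their median log2 fold change was 1.13, against 0.00099 over all tested genes. The list was drawn up with earlier results of these data known, so its counts and median are a description only. SERPINB3 and SERPINB4, among the 7, passed the filter on low values only through the KMT9a siRNA libraries, so their calls are no independent support for the count. SERPINB8, an intracellular serpin that inhibits furin, rose to 63.9 ± 1.14 CPM with KMT9a siRNA, against 16.9 ± 0.947 CPM with control siRNA (log2 fold change 1.91, adjusted p = 7.40e-11). SERPINB1, an inhibitor of neutrophil proteases, stood at 38.6 ± 1.01 and 23.9 ± 0.487 CPM (0.69, adjusted p = 4.63e-07). SERPIND1, the gene of the thrombin inhibitor heparin cofactor II, had 6.55 ± 0.653 CPM with KMT9a siRNA and 2.48 ± 0.231 CPM with control siRNA (1.39, adjusted p = 6.24e-07). The collagen chaperone gene SERPINH1, a serpin in structure that does not inhibit proteases, had 4.90 ± 0.198 and 1.84 ± 0.215 CPM (1.40, adjusted p = 1.12e-06; SD, n = 3 each).

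SERPINB2 and SERPINB5 belong to the clade B serpins, 10 of which lie side by side on hg19 chromosome 18 between 61144144 and 61656608, a span of 512 kilobases, with 3 more elsewhere. In order along the chromosome these are SERPINB5, SERPINB12, SERPINB13, SERPINB4, SERPINB3, SERPINB11, SERPINB7, SERPINB2, SERPINB10 and SERPINB8. The block was not uniform. SERPINB12, SERPINB13, SERPINB11 and SERPINB10 were too low to test, the last although it is the next gene after SERPINB2. SERPINB7, on its other side, had 15.6, 11.3 and 13.5 CPM with KMT9a siRNA, against 11.8, 13.8 and 12.7 CPM with control siRNA, and did not pass (log2 fold change 0.07, adjusted p = 0.601); without KMT9a siRNA replicate 2 it did (0.19, adjusted p = 0.0468).

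Besides the 2 members, SERPINB8, SERPINB3 and SERPINB4 were higher. SERPINB3 and SERPINB4, the squamous cell carcinoma antigen genes, were nearly absent with control siRNA. SERPINB3 had 1.68, 1.34 and 1.83 CPM with KMT9a siRNA, against 0, 0.0370 and 0 CPM with control siRNA, or 99 read pairs against 1 (ratio per depth 134, 95% interval 23.5 to 5335, exact binomial, counting error only). SERPINB4 had 56 read pairs with KMT9a siRNA and 1 with control siRNA (ratio per depth 75.7, interval 13.0 to 3041). These 2 genes are near-identical copies, so the split of reads between them is uncertain.

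**Figure D5:**
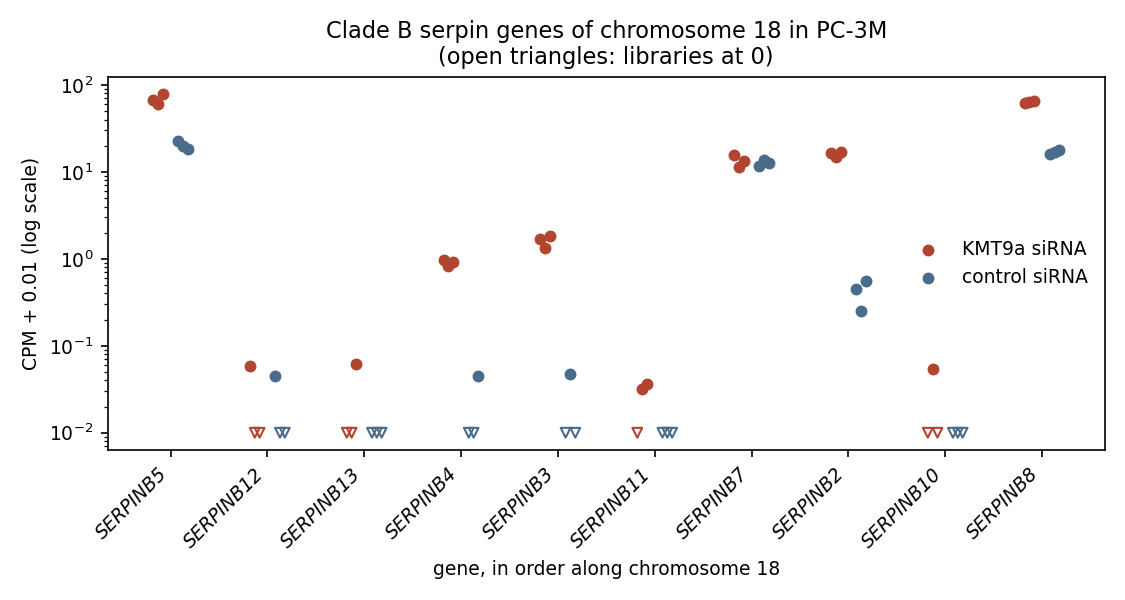
CPM plus 0.01 on a log axis for the 10 clade B serpin genes of chromosome 18 in PC-3M, in their order along the chromosome, with KMT9a siRNA left of control siRNA. Points are libraries and open triangles are libraries at 0. SERPINB2, SERPINB3, SERPINB4, SERPINB5 and SERPINB8 separate the groups, SERPINB7 overlaps, and the other 4 genes stay near 0.

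Markers of other cell types were read in the same libraries. Of 7 suprabasal keratinocyte markers, a setting in which SERPINB2 is known, IVL, SPRR1A and SPRR1B were at 0 in all 6 libraries, and the summed level was 20.7 to 24.1 CPM with KMT9a siRNA and 23.0 to 26.0 CPM with control siRNA. That sum was mainly KRT10, which was lower (16.9 and 21.3 CPM, adjusted p = 0.00256), whereas TGM1 was higher (5.53 CPM with KMT9a siRNA and 3.38 CPM with control siRNA, adjusted p = 0.000451) and KRT13, too low to test, averaged 0.168 and 0.00590 CPM. Of 5 basal epithelial markers, DSG3 was at 0. The sum was 0.863 to 1.33 CPM with KMT9a siRNA and 0.354 to 0.425 CPM with control siRNA. TP63 was most of it with KMT9a siRNA (0.975 CPM, against 0.156 CPM with control siRNA). KRT5, too low to test, had the largest control mean of the list, at 0.191 CPM. It went the other way, to 0.0318 CPM with KMT9a siRNA. Of 6 monocyte and macrophage markers, 4 stayed under 1 CPM, and the sum, mostly CD68, was 56.5 to 69.6 CPM with KMT9a siRNA and 44.99 to 50.4 CPM with control siRNA. Within that list LYZ was higher (2.69 CPM with KMT9a siRNA and 0.132 CPM with control siRNA, adjusted p = 4.37e-08) and CSF1R lower (0.282 and 0.616 CPM, adjusted p = 0.0182). LYZ passed the filter on low values only through the KMT9a siRNA libraries, with 22 read ends in the control siRNA libraries together. CSF1R would not have passed on the KMT9a siRNA libraries alone, so neither call is independent support. The endothelial sum over 5 genes was 10.3 to 11.3 CPM with KMT9a siRNA and 40.5 to 48.3 CPM with control siRNA, with VWF at 0. It was mostly KDR (8.13 CPM with KMT9a siRNA and 44.2 CPM with control siRNA), and PECAM1 (2.09 and 0.358 CPM, adjusted p = 3.50e-06) and TEK (0.597 and 0.0896 CPM, adjusted p = 5.45e-05) were higher, against the direction of the sum. TEK passed the filter on low values only through the KMT9a siRNA libraries (74 read ends, against 15 with control siRNA). Its call is therefore no independent support. The fibroblast sum over 5 genes was 41.6 to 52.8 CPM with KMT9a siRNA and 126 to 135 CPM with control siRNA, with DCN at 0. The part of these shifts in the values above was not tested.

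Genes with a pattern most like each member were sought among the 10825 tested genes averaging 5 CPM or more, by the smallest root mean square difference of centred log2(CPM + 1) profiles over the 6 PC-3M libraries. This scale compresses low values, so a gene with a smaller fold change can resemble SERPINB2. The nearest to SERPINB2 were IGFBP4, which encodes an IGF-binding protein (difference 0.0724), the phosphatase gene UBASH3B (0.0787), SLPI, which encodes a secreted inhibitor of leukocyte proteases (0.110), the caveolin gene CAV1 (0.113) and the glutamine synthetase gene GLUL (0.145). SLPI averaged 87.8 ± 2.00 CPM with KMT9a siRNA and 6.02 ± 0.257 CPM with control siRNA, and CAV1 averaged 93.1 ± 4.00 and 7.07 ± 0.450 CPM (SD, n = 3 each).

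The 2 nearest genes to each of the other members were the corepressor gene TLE1 (0.0285) and the forkhead gene FOXL1 (0.0358) for PLAU, the follistatin gene FST (0.0776) and EGFR (0.0842) for PLAT, and the ribonuclease gene ZC3H12A (0.0430) and the volume-regulated anion channel gene LRRC8A (0.0537) for PLAUR. For SERPINE2 they were the kinase gene MAP4K3 (0.0367) and CCNB1IP1 (0.0391), and for SERPINB5 the arrestin-domain gene ARRDC3 (0.0697) and KLHL5 (0.0893).

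In the MCF10A table all 6 members were listed at 0 in all 6 libraries, with KMT9a siRNA as with control siRNA, and so was N6AMT1. No fold change can be formed there, and the knockdown could not be checked. Their depth was 181064 to 255642 read ends per library, so that 0 reads allow up to 23.5 to 33.1 CPM in read pairs per library, counting error only. The zeros do not show that MCF10A cells lack these transcripts: genes that every cell uses were also at or near 0, with GAPDH at 0 to 16 read ends per MCF10A library, against 219330 to 315594 per PC-3M library, and B2M at 0 to 2. Of the 83 genes in the lists used here, 13 had any read in MCF10A. KMT9a siRNA replicate 2 stood apart in MCF10A too. Its chi-square over degrees of freedom was 14.6 and 20.7 against the other MCF10A knockdown libraries, compared with 2.49 between them. Control siRNA replicates 1 and 2 differed by no more than sampling noise (chi-square over degrees of freedom 0.790). Over all 1049 genes tested in MCF10A, 0.477% were called (1 higher and 4 lower, limma), and 0 with these 2 libraries averaged.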

How the data were processed

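Transcript levels were taken from 2 tables, PC-3M and MCF10A, each with 38763 RefSeq transcript rows on hg19. STAR, HOMER, edgeR and hg19 are named per the submitters' processing notes, with no versions or roles; strand handling is not given in the sources used here. The deposited values are a scaled signal, whose columns sum to nearly the same total within a table. Values above 0 were whole multiples of 1 unit per library (within 0.1 unit, 100% of values), which gave back the read ends. The authors' log2 fold change was copied from their deposited table; the authors' p-value was not used. The length in bases is the deposited row length.

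Genes were tested with limma 3.58.1 with a mean-variance trend (R 4.3.3) on log2(TMM-scaled value + 1), per table, adjusted by Benjamini-Hochberg, threshold 0.05; fold changes on this scale understate low genes. The edgeR 4.0.16 filter (minimum count 10, total 15) left 14958 genes in PC-3M. The edgeR test on recovered reads called 11147 genes there, against 11139 by limma. CPM are TMM-scaled read ends relative to the total over tested genes. Directions are relative to this scaling: library totals shift the median log2 fold change to -0.17.

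Members and lists were chosen with earlier results of these data known. Named genes are the members, the targeted gene, up to 5 called genes per direction and list by smallest p, fixed genes of the system (1 list gene is counted but not reported here), the chromosome 18 serpins and the genes of most alike pattern; SERPINF2, ITGB1, LRPAP1 and C10orf55 were named after their values were seen. Alternatives covered scaling, filter, pseudocount, row choice, edgeR, DESeq2 1.42.0, a replicate block and each library left out. Fits and read recovery were tested on simulated data. Intervals cover counting error only, as the reads carry no stated molecular identifiers.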

Additional observations from a re-analysis of the deposited data

How the results depend on the processing

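The groups of all 6 members stayed separate in PC-3M, with KMT9a siRNA higher, where the scaling or the filter changed the levels. The pseudocounts, edgeR, DESeq2 and the replicate block left the levels compared for overlap unchanged, so they could not show an overlap. Leaving a library out changed those levels only through the scaling. The members were picked on this contrast, so their separation is a description. None of their log2 fold changes changed sign under any alternative. SERPINB2 ranged from 4.75 with a pseudocount of 5 to 5.44 without control siRNA replicate 3, PLAU from 1.56 to 1.76, PLAUR from 1.91 to 2.18, PLAT from 1.99 to 2.24, SERPINE2 from 1.62 to 1.83 and SERPINB5 from 1.58 to 1.85, the lowest of each of these 5 with scaling by library totals. The count of lower genes in the plasminogen system, 6, became 10 with scaling by library totals and 3 when only genes averaging 5 CPM or more were tested. Higher genes among the other serpins, 7, became 3 under that filter, since fewer genes were tested. The 1 lower gene among the other proteases and inhibitors became 2 with no filter and 0 when only genes averaging 5 CPM or more were tested. With every transcript row as a feature 19819 rows were called, 10001 higher and 9818 lower. With each library left out in turn, 10428 to 11815 genes passed in PC-3M (5227 to 5824 higher, 5201 to 5991 lower), 13 of the plasminogen system were higher and 4 to 8 lower, 7 to 8 other serpins were higher, and 7 to 9 other proteases and inhibitors were higher and 0 to 1 lower.

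Same-numbered PC-3M libraries did not deviate together (correlations -0.0807, -0.146 and -0.0390), and in MCF10A the correlations were -0.0801, 0.113 and 0.163. With 3 libraries per group, this cannot exclude that same-numbered libraries were prepared together. With the replicate number as a block, 10949 genes passed, 5 genes of the plasminogen system were lower (LRPAP1 at adjusted p = 0.0638), 8 other serpins were higher, and 0 other proteases and inhibitors were lower (TFPI at adjusted p = 0.0571); in MCF10A the block left 0. The MCF10A count of 5 became 1 with library totals, 66 with no filter, 51 with DESeq2, 0 with control replicates 1 and 2 averaged, and 0 to 170 without single libraries, the highest without KMT9a siRNA replicate 2. At an unadjusted p under 0.05, 152 MCF10A genes passed by limma. The causes were not tested. SERPINB2 in control libraries, at 13 to 31 read ends, limits the precision of its ratio.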

Other observations

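Other proteases and protease inhibitors of the cell surface, in a list of 23 genes of which 10 were tested in PC-3M, were higher in 7 cases and lower in 1, against 37.2% and 37.3% of all tested genes. Their median log2 fold change was 1.01, against 0.00099 over all tested genes. As with the other lists, earlier results of these data were known when it was chosen, so these values are a description only. DPP4, a membrane dipeptidyl peptidase, stood at 417 ± 22.6 CPM with KMT9a siRNA and 60.5 ± 0.894 CPM with control siRNA (log2 fold change 2.78, limma adjusted p = 7.67e-13). HTRA1, a secreted serine protease, had 81.4 ± 1.54 and 14.9 ± 0.354 CPM (2.45, adjusted p = 5.21e-12). PRSS3, the mesotrypsin gene, had 410 ± 27.8 CPM with KMT9a siRNA and 153 ± 3.90 CPM with control siRNA (1.42, adjusted p = 2.20e-10; SD, n = 3 each), and other trypsin genes are near-identical to it, so its count is uncertain.

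Kunitz-type inhibitors were not alike. TFPI2, which inhibits plasmin and trypsin, rose to 87.6 ± 2.47 CPM with KMT9a siRNA, against 12.3 ± 0.446 CPM with control siRNA (log2 fold change 2.82, adjusted p = 2.59e-12). SPINT2, an inhibitor of membrane serine proteases, had 177 ± 17.97 and 80.5 ± 3.33 CPM (1.13, adjusted p = 1.52e-08; SD, n = 3 each). TFPI, the tissue factor pathway inhibitor gene, was the lower gene of the list, by 0.18 log2 units (adjusted p = 0.0380). That call was lost without control siRNA replicate 2 or 3 (adjusted p = 0.160 and 0.105).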
